A study of Mus musculus with 12 samples.

Results

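Nuclear genes for the mitochondrial oxidative phosphorylation machinery were followed in the striatum of hemiparkinsonian mice given L-DOPA. Their transcripts were picked from the transcript table by symbol (Nduf, Sdh, Uqcr, Cox4 to Cox8 and Atp5 genes), each gene was represented by its most abundant transcript, and 75 of the 85 matching genes had a mean of at least 1 CPM (counts scaled to a common library total) over the 4 groups. The 75 members stood among 12797 genes above that level and 52169 gene symbols in all. Sorted by symbol, they comprised 35 genes of complex I, 4 of complex II, 8 of complex III, 12 of complex IV and 16 of complex V. The choice used the symbol and the mean level over all groups, not a difference between groups.

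C57BL/6J mice received 6-OHDA, a toxin taken up by catecholaminergic neurons, into the medial forebrain bundle of the right hemisphere, after 25 mg/kg desipramine to spare noradrenergic neurons. After 2 weeks of recovery they were injected with 10 mg/kg L-DOPA plus 7.5 mg/kg benserazide, a blocker of peripheral L-DOPA decarboxylation, either once (acute) or daily for 9 days (chronic), and striata were collected 1 hour after the last injection. RNA sequencing covered 4 groups of 3 libraries: acute L-DOPA unlesioned and lesioned striatum, and chronic L-DOPA unlesioned and lesioned striatum. All mice carried the lesion and all received L-DOPA, so an effect of the lesion alone and an effect of L-DOPA on the lesioned side cannot be told apart. The mice's age is not given in the labels. The tissue was a punch of whole striatum, and in such bulk RNA fewer cells of a type and less RNA per cell cannot be told apart.

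Oxidative phosphorylation turns the energy of NADH and succinate into ATP. Complexes I and II feed electrons to ubiquinone, complex III passes them to cytochrome c, complex IV reduces oxygen, and complex V, the ATP synthase, uses the resulting proton gradient. A few catalytic subunits of complexes I, III, IV and V are encoded in mitochondrial DNA, and all other subunits, including the entire complex II, are nuclear genes whose products are imported. Striatal medium spiny neurons have a high demand for ATP to restore ion gradients, and mitochondrial complexes I and II are known points of vulnerability in the basal ganglia.

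Library totals ran from 87695043 to 173116525 counts summed over transcripts. Levels are given below as CPM scaled by TMM factors, and a difference was called when edgeR's quasi-likelihood test gave an adjusted p below 0.05 (Benjamini-Hochberg, all transcripts tested). Markers of spiny neurons were abundant in every library, with summed levels between 1495 and 2067 CPM. Other cell types varied between libraries. The summed level of 6 cortical glutamatergic markers ran from 13.7 to 31.7 CPM in acute unlesioned, 1.98 to 16.8 CPM in acute lesioned, 6.50 to 43.1 CPM in chronic unlesioned and 1.85 to 23.6 CPM in chronic lesioned striatum. Choroid plexus markers reached 477 CPM in chronic unlesioned replicate 2 and at most 11.6 CPM in all other libraries. None of the markers was at 0 counts in every library.

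Levels of members ranged from 1.43 CPM per kb of transcript (Atp5s) to 136 CPM per kb. The most abundant was Atp5b, the catalytic beta subunit of ATP synthase, at 136 CPM per kb, and Atp5a1, the alpha subunit, stood at 70.1 CPM per kb. Within complex IV the highest level was that of Cox4i1, at 98.8 CPM per kb. Ndufb9 led complex I at 43.1 CPM per kb, Uqcrh complex III at 33.7 CPM per kb and Sdha, the flavoprotein of succinate dehydrogenase, complex II at 29.1 CPM per kb. At the lower edge of the selection, Atp5l had a mean of 1.13 CPM and Cox7c of 1.34 CPM, whereas Cox6a2 at 0.928 CPM and Ndufb4 at 0.751 CPM fell just outside it. Cox4nb, Atp5s and Atp5sl match the symbols but are not subunits, and they stayed among the 75. Counts, sums and medians by complex include Cox4nb under complex IV and Atp5s and Atp5sl under complex V.

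Some members have near-identical copies elsewhere in the genome. In 10 members and Atp5g2 at least 50% of the 32-base words of the transcript occurred at another place in the mm9 assembly. The median level of these 11 genes was 6.51 CPM per kb, against 15.7 CPM per kb in 42 genes with less than 10% of such words. The 42 genes leave out the isoforms Cox4i2, Cox6a2, Cox6b2, Cox7a1, Cox7b2, Cox8b, Cox8c and Ndufa4l2. These isoforms also had less than 10% of such words, and levels of at most 1.41 CPM per kb. Atp5g2, at 0.000974 CPM per kb, was kept among the 11, so the split is uneven. Atp5l (89.8%), Atp5g1 (87.4%), Uqcrb (76.2%), Cox7c (72.5%), Atp5h (70.9%) and Cox7a2l (65%) were among them, and values for these genes are uncertain because reads may be shared or dropped. The relation between copies and level was not tested.

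The extreme case was Atp5g1, a gene for the membrane-embedded c subunit of ATP synthase. The transcript that stood for it is a single exon at chr11:100222932-100223463 on the minus strand of mm9, where the annotation places the pseudogene Gm10039, and not at the Atp5g1 gene itself, which lies at chr11:95930166-95936984. Over the 411 bases of the Atp5g1 coding sequence the pseudogene differed at 1 base. The stretch with that difference is printed for both, since it shows why reads of the gene and of the copy can hardly be separated; the capital marks the base that differs.
Atp5g1 coding sequence, bases 296 to 385: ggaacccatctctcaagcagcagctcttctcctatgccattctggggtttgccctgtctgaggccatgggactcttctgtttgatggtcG
Gm10039, chr11:100223056-100223145, minus strand of mm9: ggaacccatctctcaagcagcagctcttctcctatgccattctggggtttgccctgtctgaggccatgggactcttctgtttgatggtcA
The level listed for Atp5g1 is that of this row alone, and its reads can come from the gene or from the copy. Another 6 rows of the symbol lie at the Atp5g1 gene itself, with a highest mean of 2.24 CPM before TMM scaling. They are not part of the values given for Atp5g1 below, except where a sum over transcripts is named. Likewise, the transcript that stood for Atp5l lies on the plus strand at chr9:44728282-44729521, across the start of the Atp5l gene on the minus strand, and the counting is not stated to have used strand. The same limit holds for members whose span overlaps another gene, among them Ndufs1 (Gm11602), Sdhd (LOC100502907), Uqcr11 (LOC100503758), Cox5a (LOC735298), Cox8a (LOC100503897) on the opposite strand and Atp5b (Baz2a) on the same strand.

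The first question was whether the nuclear subunit genes differed between lesioned and unlesioned striatum after a single L-DOPA injection. Cox7a2l, counted here with complex IV, was higher, while Ndufs1, the largest iron-sulfur core subunit of complex I, and Sdhd, a membrane anchor of complex II, were lower. These were 1 higher and 2 lower calls among 75 members, whereas 6.85% of all 129674 transcripts tested were called higher and 6.02% lower. The median log2 difference of the members was 0.015, with 39 above 0 and 36 below (46.9% of genes with at least 1 CPM were above 0). The summed level of all members was 1692 ± 52.5 CPM in the unlesioned and 1698 ± 25.8 CPM (SD, n = 3) in the lesioned striatum, and the libraries of both sides overlapped.

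Cox7a2l measured 10.7, 10.2 and 10.1 CPM in the acute unlesioned libraries and 12.9, 12.1 and 12.5 CPM in the acute lesioned ones. The lesioned libraries were all above the unlesioned ones (log2 difference 0.28, SE 0.06, adjusted p = 0.00967). After chronic treatment the values were 10.5, 10.03 and 10.5 CPM unlesioned and 9.75, 9.98 and 10.1 CPM lesioned, so that the acute lesioned group stood apart from the other 3 groups. For this gene 65% of the 32-base words recur elsewhere in the genome.

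Ndufs1 measured 30.02, 30.2 and 30.8 CPM in the acute unlesioned and 26.4, 26.4 and 26.3 CPM in the acute lesioned libraries (log2 difference -0.20, SE 0.053, adjusted p = 0.0299). Sdhd measured 15.6, 15.7 and 15.4 CPM and 13.6, 13.5 and 13.6 CPM in the same groups (log2 difference -0.20, SE 0.055, adjusted p = 0.037). The libraries of the lesioned side were below those of the unlesioned side for both genes and lay close to each other. Both calls were sensitive to the number of libraries: leaving out a single library lost the call in 5 of 6 cases for Ndufs1 and in all 6 for Sdhd, with log2 differences between -0.21 and -0.19 throughout, and the call of Cox7a2l remained in all 6.

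With replicate number entered as a block, 4 members were called higher and 2 lower in the acute comparison, against 11.3% and 10.4% of all transcripts; the 3 additional genes were Ndufa6 (log2 difference 0.18), Uqcrh (0.18) and Atp5d (0.18). Removal of each library's trend with GC content and transcript length turned the balance to 1 higher and 7 lower, with a median of -0.049, where 1542 genes were higher and 1585 lower of 14460 in that fit. Across the members, the log2 difference had a Spearman rho of 0.40 with GC content (75 genes from the same libraries, a description only).

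**Figure D1:**
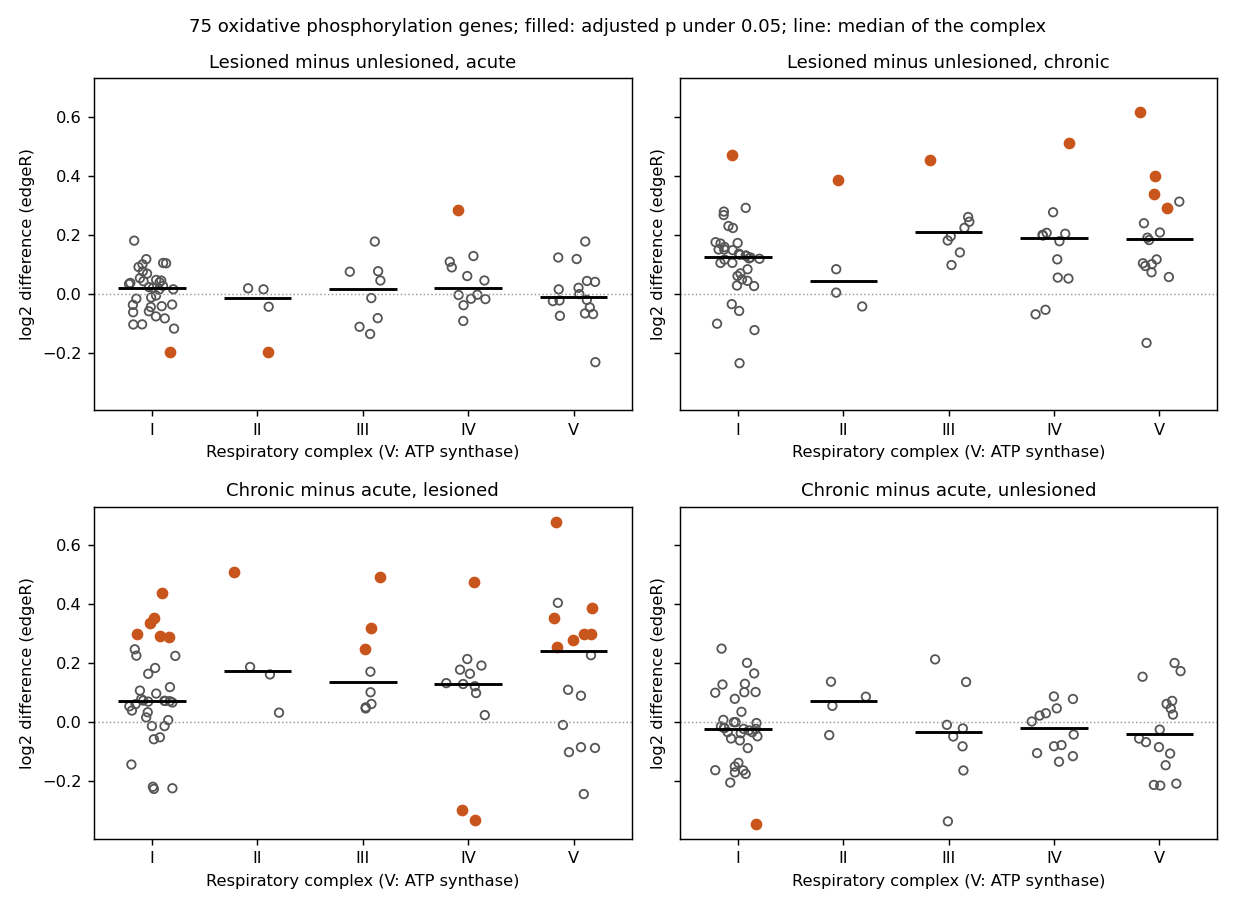
The log2 difference (vertical axis, edgeR) is shown for each of 75 members by respiratory complex (horizontal axis) in 4 comparisons, with filled points for an adjusted p below 0.05 and a line at the median of the complex. Points of every complex sit mostly above 0 for the chronic lesioned against the chronic unlesioned side. The medians there are 0.12 for complex I, 0.044 for complex II, and 0.21, 0.19 and 0.19 for complexes III, IV and V.

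After 9 days of L-DOPA, 66 of 75 members had a positive difference between lesioned and unlesioned side. The differences were small. The median log2 difference was 0.14, and the 66 members above 0 compare with 46.0% of the 12796 genes of at least 1 CPM tested there. The test called 8 members higher: Atp5d, Cox5a, Ndufa1, Uqcr11, Atp5g1, Sdhb, Atp5b and Atp5g3. Of all transcripts 7.71% were called higher, and of genes with at least 1 CPM 10.4%. In this fit, which did not pair the sides, the share of members called, 10.7%, was near the background (a fit with a replicate block is given below). None was called lower, against 4.33% of transcripts (DESeq2 also called 0 lower and 10 higher, against 4.22% and 7.73%; at an unadjusted p below 0.05, edgeR gave 19 higher and 1 lower).

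In 27 of 75 members all lesioned libraries were above all unlesioned ones, as in 18.6% of genes with at least 1 CPM. By complex, the median log2 difference after chronic treatment was 0.12 for complex I, 0.044 for complex II, 0.21 for complex III, 0.19 for complex IV and 0.19 for complex V. All 8 members of complex III were above 0, from 0.098 (Uqcrc2) to 0.45 (Uqcr11). Complex V held 4 of the 8 calls. Its summed level was 632, 679 and 638 CPM in the unlesioned and 748, 748 and 814 CPM in the lesioned libraries, so that the groups did not overlap (649.8 ± 25.9 against 770.0 ± 38.1 CPM, SD, n = 3). Most of this sum came from Atp5a1, with means of 194 and 210 CPM, and Atp5b, with 241 and 305 CPM. The summed levels of complex III did not overlap either, with 149, 162 and 152 CPM against 170.0, 171 and 191 CPM. Those of complex IV were also higher in every lesioned than in every unlesioned library. Complexes I and II overlapped, complex II with 142 ± 4.95 CPM against 148 ± 2.75 CPM.

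**Figure D2:**
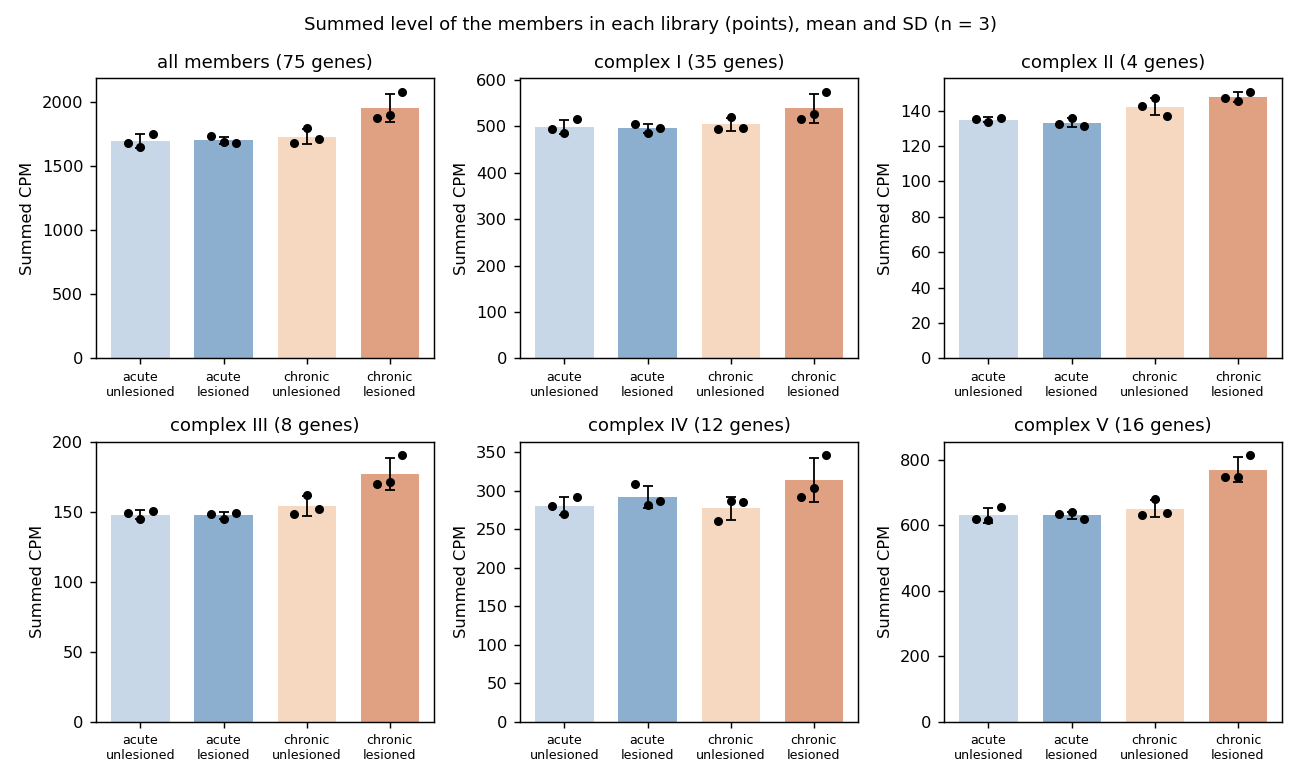
Summed CPM (vertical axis) of all members and of each complex is shown per library (points) in the 4 groups (horizontal axis), with bars for the mean and error bars for the SD (n = 3). For all members the chronic lesioned libraries lie between 1874 and 2076 CPM, above all other libraries, whose highest value is 1796 CPM.

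Atp5d, the delta subunit of the catalytic head of ATP synthase (chr10:79604202-79608558, mm9), had the largest difference. It measured 22.6, 28.8 and 26.7 CPM in the chronic unlesioned and 34.2, 40.5 and 44.8 CPM in the chronic lesioned libraries (log2 difference 0.61, SE 0.12, adjusted p = 0.00731). The lesioned libraries were all higher, and they overlapped with the acute lesioned ones. The acute libraries measured 28.4, 28.6 and 33.6 CPM unlesioned and 32.9, 33.4 and 35.8 CPM lesioned, so that the chronic unlesioned group was the lowest of the 4, overlapping with the acute unlesioned one.

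Cox5a, a nuclear-encoded subunit of cytochrome c oxidase (chr9:57369039-57380234, mm9), measured 17.1, 21.4 and 18.8 CPM in the chronic unlesioned and 25.2, 27.1 and 29.4 CPM in the chronic lesioned libraries (log2 difference 0.51, SE 0.10, adjusted p = 0.00772). In the acute groups it measured 21.1, 20.8 and 20.9 CPM unlesioned and 20.1, 19.3 and 19.4 CPM lesioned. The chronic lesioned libraries were above all 9 others.

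Ndufa1, a small X-linked membrane subunit of complex I (chrX:34727583-34731233, mm9), measured 8.80, 9.34 and 9.10 CPM unlesioned and 12.3, 11.7 and 13.8 CPM lesioned after chronic treatment (log2 difference 0.47, SE 0.086, adjusted p = 0.00543). Its acute levels were 10.1, 9.97 and 10.4 CPM unlesioned and 10.9, 9.51 and 9.22 CPM lesioned. The chronic unlesioned libraries were therefore below the acute unlesioned ones, without overlap, although that difference did not pass the test, with a log2 difference of -0.16 (adjusted p = 0.181).

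Sdhb, the iron-sulfur subunit of succinate dehydrogenase (chr4:140517118-140535108, mm9), measured 22.5, 23.3 and 21.5 CPM unlesioned and 29.4, 27.6 and 30.7 CPM lesioned after chronic treatment (log2 difference 0.39, SE 0.078, adjusted p = 0.00916). The acute libraries, at 19.9, 19.97 and 21.2 CPM and 19.7, 20.2 and 21.8 CPM, overlapped between sides. Of the other complex II genes, Sdha showed a log2 difference of -0.043, Sdhc of 0.083 and Sdhd of 0.0043, none of which passed the test.

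Atp5b measured 229.5, 255 and 239 CPM unlesioned and 295, 294 and 326 CPM lesioned after chronic treatment (log2 difference 0.34, SE 0.08, adjusted p = 0.0208). Atp5g3, another gene of the c subunit, measured 46.4, 48.3 and 44.8 CPM and 55.9, 55.4 and 59.2 CPM in the same groups (log2 difference 0.29, SE 0.075, adjusted p = 0.0311). For both genes the chronic lesioned libraries lay above all others, and the acute sides overlapped for Atp5b (235, 228 and 248 CPM against 242, 242 and 232 CPM). Atp5g1, read at the row on the pseudogene, measured 5.14, 5.94 and 5.33 CPM and 6.38, 7.04 and 8.17 CPM (log2 difference 0.40, SE 0.11, adjusted p = 0.0381). The sum over all transcripts of the symbol did not pass the test.

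Uqcr11, a small accessory subunit of complex III (chr10:79865742-79869566, mm9), measured 5.48, 6.28 and 6.72 CPM unlesioned and 7.89, 7.90 and 9.53 CPM lesioned after chronic treatment (log2 difference 0.45, SE 0.11, adjusted p = 0.0215). The chronic lesioned values overlapped with the acute ones (7.99, 7.26 and 8.09 CPM and 8.78, 7.92 and 7.83 CPM), and the chronic unlesioned values were the lowest of the 4 groups. In this gene 54.8% of the 32-base words recur elsewhere.

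**Figure D3:**
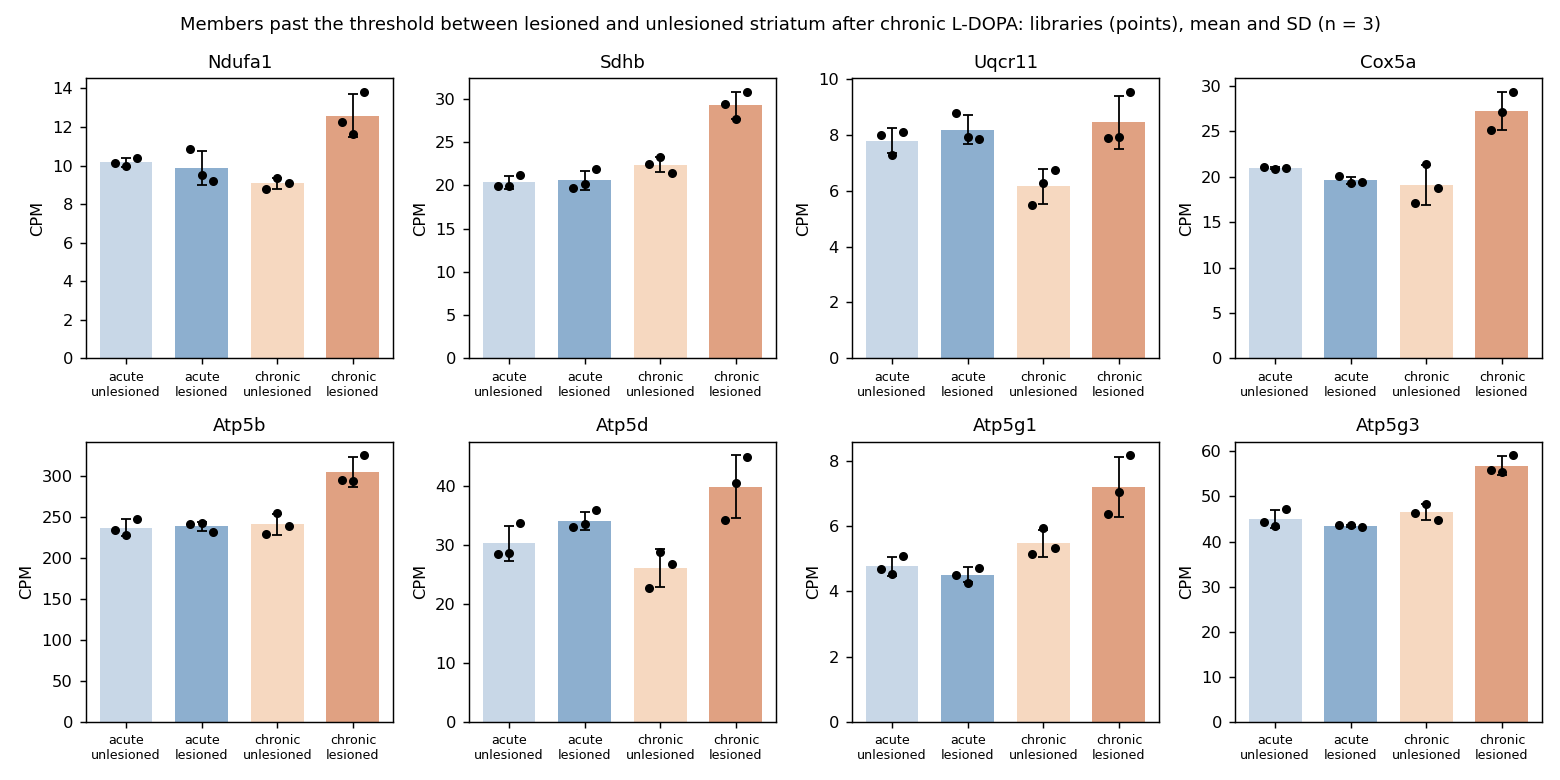
CPM (vertical axis) of the 8 members called after chronic L-DOPA is shown for each library (points) in the 4 groups (horizontal axis), with bars for the mean and error bars for the SD (n = 3). In all 8 panels the chronic lesioned libraries lie above the chronic unlesioned ones, and for Uqcr11 they overlap with the acute groups.

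The size of the chronic difference depended on the libraries. In chronic lesioned replicate 3, 72 of 75 members were above their own mean over the 12 libraries, compared with 62 in replicate 2 and 40 in replicate 1. Without replicate 3, 4 members were called and the median log2 difference was 0.097. Leaving out chronic unlesioned replicate 1 or replicate 3 gave 4 and 5 calls. Without chronic unlesioned replicate 2, the library with choroid plexus markers, 8 members were called and the median was 0.17. The calls of Atp5d, Cox5a, Ndufa1 and Sdhb remained in all 6 fits that left out a library, those of Atp5b and Atp5g3 were lost in 4 of 6, of Atp5g1 in 3 and of Uqcr11 in 2.

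With replicate number entered as a block, 19 members were called higher and 0 lower in the chronic comparison, against 11.7% and 9.91% of all transcripts (edgeR). The added genes included Cox6a1, Cox4i1, Uqcrc1, Uqcrh, Atp5j2 and Atp5e. A fit over all 12 libraries called 13 members. Removal of the GC and length trends gave 11 higher and 2 lower (Ndufa13 and Ndufs3), against 10.5% and 7.68% of genes, and together with the block 20 higher and 5 lower, where 2279 genes were higher and 2215 lower of 14237. Cortical glutamatergic markers had a median log2 difference of -1.58 between the chronic sides, and their part in the members' differences was not tested.

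The next comparison asked how the lesioned striatum differed between chronic and acute L-DOPA. Here 18 members were higher and 2 lower after chronic treatment, against 12.1% and 11.2% of all 127463 transcripts, or 2045 higher and 1989 lower of 12796 genes with at least 1 CPM. The members called higher were 24.0%. The median log2 difference was 0.11 and 60 of 75 members were above 0, against 49.7% of genes with at least 1 CPM, and in 29 members all chronic libraries were above all acute ones, as in 24.6% of those genes. This comparison shares its chronic lesioned libraries with the chronic comparison of both sides, and its acute lesioned libraries with the acute one, so it is not an independent observation of either.

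A list of catalytic and core subunits, which also held the stalk subunit Atp5o, had more of the calls than its number. Of 19 such core subunits 11 were called higher and 0 lower (DESeq2 gave the same 11 and 0; at an unadjusted p below 0.05, 14 and 1), with a median log2 difference of 0.28. Of the other 56 members 7 were called higher and 2 lower, with a median of 0.076. Core subunit transcripts were longer, with a median of 1656 bases against 739 bases. After removal of GC and length trends the counts were 13 of 19 and 17 of 56 higher, with medians of 0.31 and 0.18. The 2 sets were not matched for level or complex, and the difference between them was not tested.

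In complex I, the NADH-binding subunit Ndufv1 (log2 difference 0.33, adjusted p = 0.0121) and the iron-sulfur subunit Ndufv2 (0.29, adjusted p = 0.0144) were higher. Ndufs1 measured 38.5, 33.3 and 35.3 CPM in the chronic lesioned libraries, above the 26.4, 26.4 and 26.3 CPM of the acute lesioned libraries (log2 difference 0.44, SE 0.076, adjusted p = 0.00268). Accessory subunits Ndufa9 (0.30), Ndufb9 (0.29) and Ndufa1 (0.35) were also called, and 29 of the 35 complex I genes were not.

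Sdhb measured 19.7, 20.2 and 21.8 CPM in the acute and 29.4, 27.6 and 30.7 CPM in the chronic lesioned libraries (log2 difference 0.51, SE 0.077, adjusted p = 0.00125). In complex III the core proteins Uqcrc1 and Uqcrc2 and the Rieske iron-sulfur protein Uqcrfs1 were called. Uqcrc1 measured 37.2, 38.7 and 39.8 CPM acute and 52.3, 51.4 and 59.0 CPM chronic (log2 difference 0.49, SE 0.079, adjusted p = 0.00173), without overlap. Uqcrc2 had a log2 difference of 0.32 (adjusted p = 0.00798) and Uqcrfs1 of 0.25 (adjusted p = 0.0263).

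In complex V, 7 of 16 genes were called higher: the alpha, beta and gamma subunits Atp5a1 (0.30), Atp5b (0.35) and Atp5c1 (0.30), the peripheral stalk subunits Atp5f1 (0.26) and Atp5o (0.28), and the c subunit genes Atp5g3 (0.39) and Atp5g1 (0.68). Atp5g1 measured 4.51, 4.27 and 4.72 CPM acute and 6.38, 7.04 and 8.17 CPM chronic (log2 difference 0.68, SE 0.10, adjusted p = 0.00128). This was the largest difference of any member, but it was read at the row on the pseudogene, whose reads can come from either place. Atp5d, the largest difference between the chronic sides, was not called here (0.23, adjusted p = 0.118).

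Complex IV held calls in both directions. Cox5a was higher (log2 difference 0.47, SE 0.078, adjusted p = 0.00202), whereas Cox7a2l (log2 difference -0.33, SE 0.071, adjusted p = 0.00781) and Cox8a were lower. Cox8a measured 47.8, 40.7 and 45.0 CPM acute and 32.2, 35.6 and 40.7 CPM chronic; acute replicate 2 and chronic replicate 3 overlapped narrowly, and the call (log2 difference -0.30, SE 0.10, adjusted p = 0.0494) was lost in 5 of 6 fits without a library and in 7 of 11 other settings. The call of Cox7a2l remained in every setting tried.

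Without chronic lesioned replicate 3, 13 members were called higher and 4 lower and the median fell to 0.056. Without acute lesioned replicate 2, 11 were higher and 1 lower. Removal of GC and length trends gave 30 higher and 2 lower, with a median of 0.18, against 16.5% and 15.2% of genes. All 6 oligodendrocyte markers were lower in the chronic lesioned group (2 by DESeq2), with a median log2 difference of -0.84 and summed levels of 1162 to 2099 CPM against 2114 to 3496 CPM. Microglia markers were lower in 4 of 6 genes. The part of these differences in the members' values was not tested.

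On the unlesioned side chronic and acute treatment were compared as the counterpart. Of 129187 transcripts 0.969% were called higher and 1.64% lower. With TMM scaling alone 1 member was called, Ndufb2, which was lower (log2 difference -0.34, SE 0.078, adjusted p = 0.0457). It measured 10.4, 10.3 and 10.2 CPM acute and 7.43, 8.86 and 8.04 CPM chronic, without overlap. Its transcript overlaps rows of Adck2 and Braf, the call was lost in 5 of 6 fits without a library, and DESeq2 called 1 member higher and 2 lower, against 2.02% and 2.84% of transcripts. Without chronic unlesioned replicate 2 there were 1 higher and 3 lower calls. Removal of GC and length trends gave 4 higher, Ndufv1 (log2 difference 0.30), Ndufv3 (0.22), Uqcrc1 (0.27) and Atp5g1 (0.28), and Ndufb2 lower, against 1.99% and 2.86% of genes, and 0 calls when joined with the block. At an unadjusted p below 0.05, 8 members were higher and 6 lower. The median log2 difference was -0.023, with 30 members above 0, against 47.5% of genes with at least 1 CPM. Core subunits had a median of 0.086 and the other members of -0.040.

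The difference between both lesion effects was tested directly as an interaction of side and treatment. The median over members was 0.14, and 65 of 75 were above 0, against 50.5% of genes with at least 1 CPM. The test called 4 members higher and 1 lower, where 3.22% and 1.30% of all 130867 transcripts were called. Of genes with at least 1 CPM 5.23% were called higher and 2.07% lower. In this fit, which did not pair the sides, the share of members called higher, 5.33%, was near the background. The called genes were Cox5a (log2 difference 0.61, SE 0.11, adjusted p = 0.00578), Ndufa1 (log2 difference 0.51, SE 0.11, adjusted p = 0.0152), Sdhb (log2 difference 0.37, SE 0.094, adjusted p = 0.0362) and Atp5g3 (log2 difference 0.34, SE 0.085, adjusted p = 0.0348), with a larger lesioned-minus-unlesioned difference after chronic than after acute treatment, and Cox7a2l, with a smaller one (log2 difference -0.33, SE 0.084, adjusted p = 0.0334). Under the replicate block 12 were higher and 1 lower, against 6.89% and 5.24% of transcripts. Without chronic lesioned replicate 3 the median was 0.084 and 2 members were called. Leaving out any of the other libraries gave between 1 (without acute lesioned replicate 2) and 7 calls, the latter without chronic unlesioned replicate 2 or chronic lesioned replicate 2, and 2 or 3 for the rest.

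Several subunits of complexes IV and V come as pairs of genes with different tissue distribution. The ubiquitous member was the abundant one in every pair. Cox6a1 stood at 92.5 CPM per kb and its heart and muscle counterpart Cox6a2 at 1.41 CPM per kb. Cox4i1 stood at 98.8 CPM per kb and Cox4i2 at 0.502 CPM per kb. Cox8a stood at 73.1 CPM per kb, Cox6b1 at 47.3 CPM per kb and Cox7a2 at 19.8 CPM per kb, while Cox8b, Cox8c, Cox6b2 and Cox7a1 were below 1 CPM. For the c subunit, Atp5g3 stood at 66.3 CPM per kb and Atp5g1, read at the row on the pseudogene, at 10.3 CPM per kb. Atp5g2, for which 100% of the words recur elsewhere, was close to 0.

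Cox6a2 was below the limit for members and differed in the opposite direction to most of them. It measured 1.08, 1.16 and 0.806 CPM in the chronic unlesioned and 0.615, 0.555 and 0.674 CPM in the chronic lesioned libraries (log2 difference -0.71, SE 0.18, adjusted p = 0.0279). The acute libraries measured 0.82, 1.09 and 0.959 CPM unlesioned and 1.25, 1.19 and 0.932 CPM lesioned. The chronic lesioned group was the lowest, also against the acute lesioned group (log2 difference -0.87, SE 0.17, adjusted p = 0.00437).

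The subunits encoded by mitochondrial DNA were read through rows of the same table. For mt-Nd1 the level was 1705 ± 86.2 CPM in acute unlesioned, 1889.6 ± 166 CPM in acute lesioned, 1589 ± 112 CPM in chronic unlesioned and 1830.0 ± 134 CPM in chronic lesioned striatum (SD, n = 3). For mt-Cytb the corresponding levels were 2793 ± 86.7, 3046 ± 246, 2726 ± 159.9 and 2801 ± 115 CPM. For mt-Nd1 the chronic lesioned libraries lay above the chronic unlesioned ones, and the acute sides overlapped. Neither difference passed the test (log2 difference 0.15, adjusted p = 0.234 acute, 0.20 (adjusted p = 0.16) chronic), nor did those of mt-Cytb (0.13, adjusted p = 0.295 and 0.04 (adjusted p = 0.797)). mt-Nd6, on the other strand of the mitochondrial genome, was higher in the acute lesioned striatum (0.26, adjusted p = 0.0458). mt-Nd2 was lower after chronic than acute treatment on the lesioned (-0.30, adjusted p = 0.0404) and on the unlesioned side (-0.30, adjusted p = 0.0342). Transcripts between mt-Co2 and mt-Co3 had at most 288 counts in any library, and all their 32-base words recur elsewhere in the assembly, so they could not be read. Levels of nuclear and mitochondrial genes were not compared by a test.

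Other genes of energy metabolism were counted from lists. Of genes with at least 1 CPM, 9.41% were called higher and 10.5% lower between the acute sides, 10.4% and 6.89% between the chronic sides, and 2045 and 1989 of 12796 in the lesioned striatum after chronic against acute treatment, and the counts of each list are read against these shares. Of 10 genes for mitochondrial carriers, porins and creatine kinase, 5 were called higher and 0 lower between the chronic sides (edgeR; DESeq2 gave the same numbers, and at an unadjusted p below 0.05 there were 6 and 0), with a median of 0.28. Slc25a3, the phosphate carrier that supplies ATP synthase, had a log2 difference of 0.88 (adjusted p = 3.31e-05) after chronic and 0.30 (adjusted p = 0.00477) after acute treatment. Ckmt1, the mitochondrial creatine kinase, had 0.38 (adjusted p = 0.0162) after chronic treatment. In the lesioned striatum, 6 of the 10 were higher and 1 lower after chronic against acute treatment, with Slc25a3 at 0.54 and Ckmt1 at 0.50.

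Of 16 citric acid cycle and pyruvate dehydrogenase genes, 9 were higher and 1 lower in the lesioned striatum after chronic against acute L-DOPA, with a median of 0.24. Idh3a, a subunit of NAD-dependent isocitrate dehydrogenase, differed by 0.50 (adjusted p = 0.000699), and Mdh2, malate dehydrogenase, by 0.40 (adjusted p = 0.00416). Between the chronic sides 2 of the 16 were higher, Idh3a (0.28) and Sucla2 (0.32). Of 16 glycolysis genes 4 were higher and 1 lower in each of these comparisons, with Pgam1, a phosphoglycerate mutase, at 0.50 (adjusted p = 0.00544) and Pfkp, a phosphofructokinase, at 0.46 (adjusted p = 0.00208) for chronic against acute.

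Of 55 cytosolic ribosomal protein genes with at least 1 CPM, 22 were higher and 0 lower in the acute lesioned striatum (edgeR; DESeq2 gave 20 and 0, and at an unadjusted p below 0.05 there were 35 and 0), with a median of 0.23, and 24 were lower and 2 higher after chronic against acute treatment on the lesioned side, with a median of -0.27. Of 75 mitochondrial ribosomal protein genes, 8 were lower and 0 higher in the acute lesioned striatum (7 and 0 by DESeq2; 14 and 2 at an unadjusted p below 0.05), near the 10.5% lower among all genes with at least 1 CPM, and 2 were higher and 2 lower for chronic against acute. Of 28 assembly factors, 5 were lower and 1 higher in the acute comparison, the largest being Ndufaf4 (-0.40, adjusted p = 0.00368), a complex I assembly factor, and 4 were higher and 2 lower for chronic against acute on the lesioned side, with Ttc19, a complex III factor, at 0.39 (adjusted p = 0.00739). Of 13 regulators of mitochondrial biogenesis, Gabpa was the only one called by edgeR for chronic against acute on the lesioned side (-0.27, adjusted p = 0.0323). DESeq2 called 1 of the 13 higher and 0 lower there, so the call of Gabpa depended on the method.

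**Figure D4:**
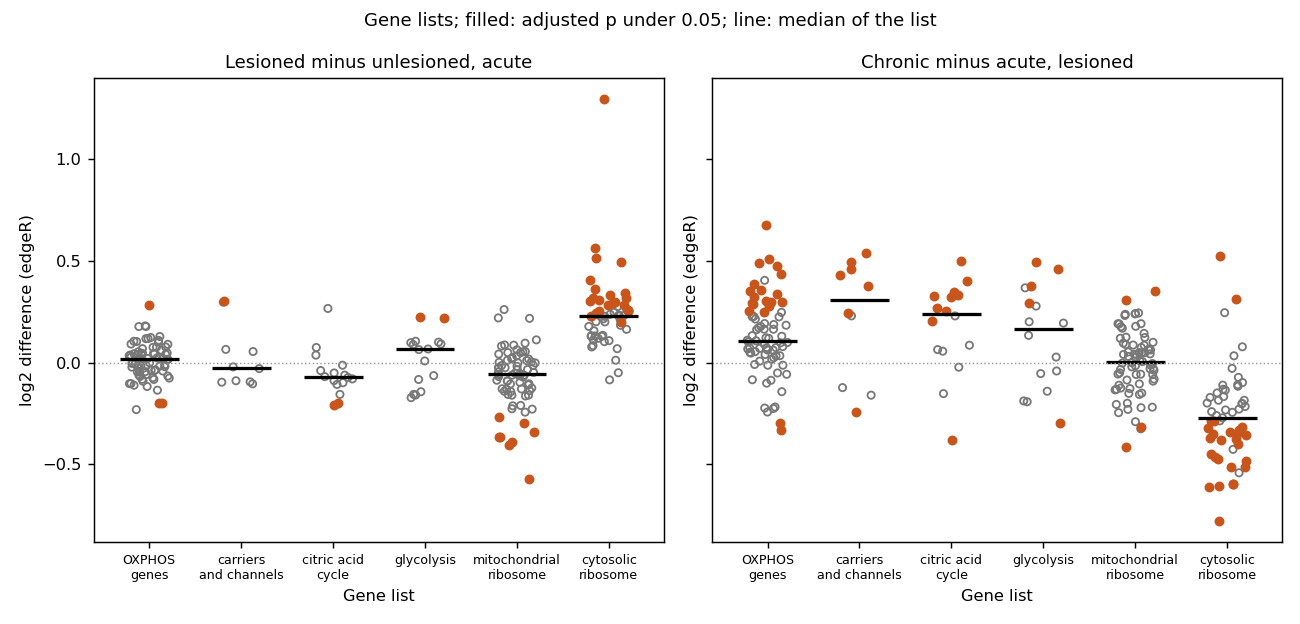
The log2 difference (vertical axis, edgeR) is shown for genes of 6 lists (horizontal axis; OXPHOS genes are the 75 members) in the acute comparison of both sides and in the lesioned striatum after chronic against acute L-DOPA, with filled points for an adjusted p below 0.05 and lines at the medians. Median differences of members, carriers and citric acid cycle genes are 0.11, 0.31 and 0.24 in the right panel, whereas that of cytosolic ribosomal protein genes is -0.27.

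Promoter sequence was compared as a further property that the choice of members did not use. Of the 75 members 63 matched RefSeq promoters of the GRCm38.p6 build by gene ID, giving 69 sequences of 250 bases before to 50 bases after the start. The NRF1 core TGCGCA, read on both strands, occurred in 24.6% of them and in 7.76% of all 32851 promoters. The GABP or ETS motif CCGGAAG occurred in 23.2% against 8.86%, the YY1 core AAGATGG in 18.8% against 6.34%, and TATAAA in 8.70% against 13.6%. Any of the first 3 was found in 53.6% of member promoters and in 20.4% of all. These are matches of letters and no measured binding.

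The 250 bases before the start (GRCm38.p6) are printed for 4 called members that hold a match there, and for Cox5a, which has the largest interaction and no match in this window. Capitals mark the matches.
Uqcr11, chr10:80406822-80407071, minus strand: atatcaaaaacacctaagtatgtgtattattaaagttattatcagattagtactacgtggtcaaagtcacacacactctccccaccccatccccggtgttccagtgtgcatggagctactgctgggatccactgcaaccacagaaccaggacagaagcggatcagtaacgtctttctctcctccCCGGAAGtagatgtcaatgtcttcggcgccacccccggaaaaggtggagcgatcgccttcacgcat
Ndufa9, chr6:126849145-126849394, minus strand: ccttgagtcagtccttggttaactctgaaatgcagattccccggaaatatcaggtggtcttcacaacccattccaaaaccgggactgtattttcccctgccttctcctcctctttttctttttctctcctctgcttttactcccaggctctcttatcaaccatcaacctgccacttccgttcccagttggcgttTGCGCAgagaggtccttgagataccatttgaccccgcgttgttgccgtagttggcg
Sdhd, chr9:50603850-50604099, minus strand: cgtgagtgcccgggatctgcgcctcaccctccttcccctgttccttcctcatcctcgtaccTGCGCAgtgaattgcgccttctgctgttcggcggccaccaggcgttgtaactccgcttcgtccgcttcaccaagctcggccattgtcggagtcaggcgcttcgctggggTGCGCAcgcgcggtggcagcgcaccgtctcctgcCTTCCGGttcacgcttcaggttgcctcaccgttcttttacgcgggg
Atp5f1, chr3:105959264-105959513, minus strand: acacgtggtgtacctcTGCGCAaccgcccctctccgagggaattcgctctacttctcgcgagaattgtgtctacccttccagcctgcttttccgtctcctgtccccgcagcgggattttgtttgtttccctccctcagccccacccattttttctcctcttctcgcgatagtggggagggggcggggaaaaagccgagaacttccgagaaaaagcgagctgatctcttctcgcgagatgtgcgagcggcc
Cox5a, chr9:57520982-57521231, plus strand: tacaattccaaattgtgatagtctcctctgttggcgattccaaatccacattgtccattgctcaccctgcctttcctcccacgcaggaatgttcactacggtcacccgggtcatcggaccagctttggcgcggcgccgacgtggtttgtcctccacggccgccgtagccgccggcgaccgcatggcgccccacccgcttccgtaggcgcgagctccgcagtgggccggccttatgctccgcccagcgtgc
Uqcr11 has CCGGAAG starting 66 bases before the start, Ndufa9 has TGCGCA at 56 bases, Sdhd has TGCGCA at 189 and at 80 bases and the reverse complement of CCGGAAG at 46 bases, and Atp5f1 has TGCGCA at 234 bases. Sdhd, with matches, was lower in the acute lesioned striatum. Uqcr11, Ndufa9 and Atp5f1, with matches, were higher in comparisons of the chronic lesioned striatum, as was Cox5a, without one. Atp5d, the largest difference between the chronic sides, also has no match in this window in either of its 2 promoters, which are not printed. Matches in the other called members are not given here.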

How the data were processed

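TruSeq RNA libraries of striatal punches were sequenced on a Genome Analyzer II by the authors, mapped to mm9 and counted per transcript with Genomatix software. Use of strand is not given in the sources used here. The deposited table holds raw counts and a normalized expression signal per transcript for each library. The deposited signal, once multiplied by transcript length, was proportional to the counts (coefficient of variation 3.64% to 3.86%) and was not used in tests. The deposited lists of the authors' own comparisons (fold changes and p-values), with another 36 per-sample columns, were not used. Counts from 296 transcripts with no symbol (0.0485% of counts) were left out.

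Members and gene lists were chosen with earlier results of these data known. Named genes were core subunits and tissue isoforms, the 3 largest rises and falls per comparison among calls, the extremes and the most abundant gene of each complex, and at most 2 called genes of each other list. Differences were tested with edgeR 4.0.16 (quasi-likelihood, filterByExpr, TMM) in R 4.3.3, each on the 6 libraries compared, the interaction on all 12, with Benjamini-Hochberg adjustment over all transcripts tested; alternatives included DESeq2 1.42.0. Calls used an adjusted p below 0.05. Scripts were tested on simulated data. Libraries differed from each other by more than sampling noise. The labels count 12 mice, and the study's text describes each mouse's unlesioned side as its control. Libraries with the same number deviated together between sides (correlations over 12797 genes of 0.48, 0.50 and 0.38 acute, 0.51, 0.57 and 0.16 chronic), so the numbers were taken to pair them. Between treatments the correlations of replicates 1 and 2 were negative, while those of replicate 3 were 0.230 lesioned and 0.137 unlesioned. The 0.16 of chronic replicate 3 was therefore no clearer than that of a shared number, and its pairing is uncertain. p-values measure the spread between these samples. A read may count for several overlapping transcripts. Copies were searched with 32-base words of mm9.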

Additional observations from a re-analysis of the deposited data

Results flagged for a closer look

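The lesioned-minus-unlesioned difference in 4 members was larger under chronic than under acute treatment by the interaction test of edgeR (Benjamini-Hochberg adjustment over all transcripts): Cox5a by 0.61 log2 units, Ndufa1 by 0.51, Sdhb by 0.37 and Atp5g3 by 0.34. Higher values in the chronic lesioned libraries than in all others accompanied these differences for all 4 genes. In this fit, which did not pair the sides, the share of members called higher, 5.33%, was near the 5.23% of genes with at least 1 CPM. With replicate number as a block, 12 members were called higher and 1 lower, against 6.89% and 5.24% of all transcripts. Cox7a2l had a smaller difference after chronic treatment (interaction -0.33 log2 units), and its high values were those of the acute lesioned libraries. Cox6a2, below the level required of members, also had a smaller one (log2 difference -0.95, SE 0.24, adjusted p = 0.036). Cox5a kept its call in all 12 fits without a library and Ndufa1 in 11, while the call was lost in 9 of 12 for Sdhb and in 10 of 12 for Cox7a2l and Atp5g3.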

How the results depend on the processing

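No called difference of a member reversed its direction under the alternatives run; uncalled differences near 0, such as that of Sdhd between the chronic sides (-0.045 to 0.064), did. Of the alternatives run for named calls, 526 kept the call and 128 lost it. With the replicate number as a block, members called were 6 (acute), 19 (chronic), 13 (interaction) and 0 (unlesioned, chronic against acute), against 3, 8, 5 and 1; it changed no other count of calls by over 1.5 times. Removal of GC and length trends gave 8, 13, 14 and 5 (4 higher and 1 lower), with a median of -0.049 for the acute difference, and 32 called with a median of 0.18 for the lesioned striatum, chronic against acute. Both together gave 9, 25, 20 and 0, with medians of -0.050 for the acute and 0.18 for the lesioned comparison. A fit over 12 libraries gave 1 (acute), 13 (chronic) and 0 (unlesioned). An adjusted p below 0.01 left 1 (acute), 4 (chronic), 9 (lesioned), 0 (unlesioned) and 1 (interaction). DESeq2 called 3 in the unlesioned comparison and 10 in the interaction. Without a filter on low counts these were 2 and 3. In the unlesioned comparison 0 were called with a single transcript per gene, with sums over transcripts, with members of at least 10 CPM, and, chosen after seeing the data, with the genes of known GC content and no trend removed. Leaving out 1 library gave 1 to 2 calls (acute), 4 to 8 (chronic), 12 to 20 (lesioned), 0 to 4 (unlesioned) and 1 to 7 (interaction); the ranges of the medians were -0.016 to 0.021, 0.097 to 0.19, 0.056 to 0.16, -0.059 to 0.012 and 0.084 to 0.20. Between treatments same-numbered libraries are not described as pairs (correlations -0.083, -0.137 and 0.230 lesioned, -0.066, -0.016 and 0.137 unlesioned), and the block there gave 19 and 0 calls.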

Other observations

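Of 8 further genes of the electron transfer chain and ATP synthase whose symbols fall outside the selection, Usmg5, a small ATP synthase subunit, differed between the chronic sides, lesioned higher (0.42, adjusted p = 0.0144), and Cyc1, the cytochrome c1 of complex III, rose from acute to chronic treatment on the lesioned side (0.27, adjusted p = 0.0397). The share of mitochondrial DNA rows in all counts ran from 5.94% to 7.22% of a library.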
